A study of Homo sapiens with 16 samples.

Results

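The genes described here build and load the endoplasmic reticulum (ER). They comprise 44 genes of ER translocation, membrane insertion and ER shaping, found by symbol among the 59385 gene symbols counted by RNA-Seq in hiPSC-CMs, which are beating cardiomyocytes made from human induced pluripotent stem cells. All 44 symbols were present and all 44 passed the filter on low counts in both models. They were brought together with the results of these libraries known, and some of them because they moved in opposite directions with gain and loss of LINC00881, a long intergenic noncoding RNA of the heart. The changes and counts given for the 2 models are therefore a description of these libraries and no evidence about the group as a whole.

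The 16 libraries came from the WTC-11 line at day 15 to 35, and all cells were transfected with lipofectamine reagent. The 4 LINC00881 overexpression libraries carried a LINC00881 plasmid, with the transcript cloned behind a CMV promoter, and were set against 4 libraries carrying a plasmid for bacterial alkaline phosphatase. The 4 LINC00881 knockdown libraries received antisense LNA GapmeRs, oligonucleotides that direct RNase H to their target RNA, and were set against 4 libraries given a scrambled oligonucleotide. Every library derives from a single cell line, so p-values measure the spread between transfected samples of that line, which may be technical in part.

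Secretory and membrane proteins are threaded into or across the ER membrane as they are made. The signal recognition particle halts the ribosome and brings it to the SEC61 channel, signal peptidase trims the chain, the ER membrane complex inserts transmembrane helices that the channel handles poorly, and oligosaccharyltransferase attaches the dolichol-borne N-glycan. Hairpin proteins and membrane-fusing GTPases give the ER its tubules and sheets. In cardiomyocytes the sarcoplasmic reticulum, the calcium store of the contraction cycle, is a specialised part of this membrane system, and ion channels of the surface membrane pass through the same machinery.

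Promoters of SERP1, ARL6IP1, NUS1 and SSR3, the genes described most closely below, are shown for 250 bases before the transcription start because several ER stress elements are defined by short motifs in this window. SERP1, ARL6IP1 and NUS1 were lower with overexpression and higher with knockdown, and SSR3 was the lone gene of the group that was lower with knockdown. The sequences are from RefSeq on GRCh38.p14 and run 5′ to 3′ on the gene's strand. Capitals mark matches, on either strand, to CCAAT, to CCACG or to the ER stress element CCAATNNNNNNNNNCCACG, which contains both.
SERP1 promoter (chr3:150546497-150546746, minus strand): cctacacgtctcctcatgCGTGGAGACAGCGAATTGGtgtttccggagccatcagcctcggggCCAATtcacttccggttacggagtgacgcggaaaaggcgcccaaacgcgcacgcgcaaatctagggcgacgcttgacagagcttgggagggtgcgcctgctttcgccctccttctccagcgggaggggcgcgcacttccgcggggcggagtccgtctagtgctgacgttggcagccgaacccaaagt
ARL6IP1 promoter (chr16:18801550-18801799, minus strand): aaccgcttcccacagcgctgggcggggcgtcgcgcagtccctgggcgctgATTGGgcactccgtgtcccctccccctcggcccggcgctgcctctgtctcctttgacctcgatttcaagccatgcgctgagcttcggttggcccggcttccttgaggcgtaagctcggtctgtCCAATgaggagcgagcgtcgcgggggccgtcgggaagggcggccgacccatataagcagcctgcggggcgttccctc
NUS1 promoter (chr6:117675219-117675468, plus strand): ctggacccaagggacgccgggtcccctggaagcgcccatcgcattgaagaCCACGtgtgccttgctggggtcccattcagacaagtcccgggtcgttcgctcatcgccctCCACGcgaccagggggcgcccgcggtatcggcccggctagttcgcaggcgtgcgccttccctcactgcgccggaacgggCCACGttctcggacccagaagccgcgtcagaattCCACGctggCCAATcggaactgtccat
SSR3 promoter (chr3:156555118-156555367, minus strand): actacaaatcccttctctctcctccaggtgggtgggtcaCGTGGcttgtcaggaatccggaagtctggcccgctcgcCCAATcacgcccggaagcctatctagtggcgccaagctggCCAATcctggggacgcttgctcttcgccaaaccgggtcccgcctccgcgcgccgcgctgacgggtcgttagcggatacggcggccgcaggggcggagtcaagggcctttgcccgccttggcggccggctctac

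The SERP1 window held a full ER stress element on the reverse strand, from 232 to 214 bases before the start, and a separate CCAAT from 187 to 183 bases before it. No other window of the group held the full element. RefSeq promoters (250 bases before to 50 after a start) were matched for 38 of the 44 genes in 54 windows, and the element was in 1.85% of these windows, against 0.0769% of all 35116 windows. The element TGACGTGG, whose reverse complement contains CCACG, was in windows of SRP19, SEC62, SSR3, SSR4 and DHDDS (9.26% of the group's windows and 0.729% of all). For SSR3 it was not within the 250 bases printed. TGACGTCA, which shares its first 6 letters with TGACGTGG, was in windows of EMC10 and ATL2 (3.7% and 1.85% of all). CCAAT alone was in 53.7% of the group's windows, against 34.6% of all, and CCACG alone in 55.6%, against 38.1%. These matches describe letters in the windows, and nothing on binding was measured. Promoters of SRPRA, SPCS1, EMC2, MMGT1, RPN1 and STT3B were not analysed here.

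LINC00881 itself stood at 477.2, 452.3, 439.0 and 406.7 CPM in the overexpression libraries, against 87.6, 142.9, 98.4 and 92.3 CPM with control plasmid. CPM are counts relative to the library's total after TMM scaling, but the summed marker levels in this paragraph are without TMM scaling. Whether these sums would overlap after TMM scaling was not computed. With GapmeR it stood at 11.3, 26.7, 19.7 and 21.8 CPM, against 126.1, 148.9, 54.9 and 54.9 CPM with scrambled oligonucleotide. Neither pair of groups overlapped. The total count was 11272633 to 16415025 per library with overexpression and 9833533 to 13493729 with its control, and it was 26979162 to 37332620 with knockdown and 29279325 to 37033017 with its control. The 44 genes took 0.70% to 0.75% of counts in the plasmid libraries and 0.72% to 0.88% in the oligonucleotide libraries. The 2 experiments differed in makeup, with mitochondrial rRNA at 0.84% to 1.14% and 13.3% to 17.3% of counts, so each treatment was compared with its own control. The spread between replicates, as edgeR's common biological coefficient of variation, came to 0.0792 for the plasmid libraries and 0.445 for the oligonucleotide libraries, so changes of the same size were seen less sharply with knockdown. Beside all results that follow, the summed level of 10 cardiomyocyte markers ranged from 21710.5 to 23326.7 CPM with overexpression and from 17933.2 to 22053.9 with its control (4 higher, 1 lower), and from 11483 to 17081.5 CPM with knockdown and from 16701.4 to 18732.5 with its control (0 higher, 5 lower). Summed markers of other cells stood below the cardiomyocyte sum, in which MYH7, MYL7 and MYH6 were the largest terms with control plasmid. Single genes did not all follow this order. With control plasmid FN1, a fibroblast marker, was at 432 CPM and ACTA2, a smooth muscle marker, at 300 CPM, above TNNT2 at 115 CPM. With overexpression the summed level was 782 to 831 CPM for fibroblast markers, against 685 to 763 CPM with control plasmid (2 of 7 tested higher), and 722 to 824 CPM for smooth muscle markers, against 591 to 709 CPM (3 of 5 higher), without overlap. With knockdown neither list held a called gene. Fibroblast markers then summed to 213 to 341 CPM, against 220 to 254 CPM with scrambled oligonucleotide. Smooth muscle markers ranged widely between libraries, at 260 to 1257 CPM, against 424 to 1046 CPM. Endothelial markers summed to 220 to 238 CPM with overexpression, against 191 to 219.9 CPM with control plasmid, and KDR, the 1 tested of 5, was higher, while with knockdown they summed to 34.8 to 118.9 CPM, against 51.9 to 84.8 CPM, with none called. Hepatic and endodermal markers summed to 187 to 205 CPM with overexpression, against 135 to 319 CPM (APOB higher, 1 of 7), and to 57.9 to 177.8 CPM with knockdown, against 111 to 197.7 CPM (ALB lower at -2.48, 1 of 7). No pluripotency marker was called in either model, and NANOG, a pluripotency gene, was at 0 in all plasmid libraries. Whether the cardiomyocyte markers moved through the number of cardiomyocytes or through their RNA per cell cannot be told apart in bulk libraries. Their part in the results was not tested.

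Most of the group was strongly expressed. Per kilobase of annotated exon, the highest levels with control plasmid were SRP14 at 323, SRP9 at 253 and SSR3 at 159 CPM per kb, and the lowest were EMC6 at 1.96 and SRP19 at 2.26 CPM per kb. With scrambled oligonucleotide SRP14 stood at 963, DAD1 at 272 and SRP9 at 224 CPM per kb, while EMC10 at 1.84 and ATL3 at 1.95 were the lowest. Raw counts per library ran from 10 for EMC6 to 80940 for SRP14, so that EMC6 is the one gene of the group whose values rest on few reads in the plasmid libraries.

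With overexpression 11 of the 44 genes were lower and 2 were higher at an unadjusted p under 0.05 in edgeR's quasi-likelihood test. The study's cutoff is also 0.05, without a statement that it was adjusted or unadjusted. Over all 14355 genes tested, 6.23% were lower and 5.87% higher. With knockdown 6 of the 44 were higher and 1 was lower, where 4.20% of all 18127 genes were higher and 4.15% lower. None of the 44 passed an adjusted p under 0.05 in edgeR with each model fitted against its own control (all genes 0.00697% higher and 0.00% lower with overexpression, and 0.00% in each direction with knockdown). The smallest adjusted p was 0.243 with overexpression and 0.377 with knockdown, while DESeq2 called 3 in each (ARL6IP1, EMC2 and SEC62 with overexpression, ARL6IP1, NUS1 and SERP1 with knockdown). In other edgeR fits SEC62 passed with overexpression among all genes with at least 1 count, ARL6IP1 and SEC62 passed without control plasmid replicate 2, and ARL6IP1, NUS1 and SERP1 passed with knockdown when all 16 libraries were fitted together. Treated and control libraries did not overlap for 8 genes lower and 2 higher with overexpression (3.45% and 3.80% of all genes) and for 4 genes higher and 1 lower with knockdown (3.08% and 3.37%). The changes were small with overexpression, from -0.33 to 0.24 on the log2 scale with a median of -0.062 (all genes 0.0033). With knockdown they ran from -0.40 to 0.85 with a median of 0.049 (all genes -0.0065). Below, higher and lower without a further qualifier mean past this unadjusted cutoff.

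**Figure D1:**
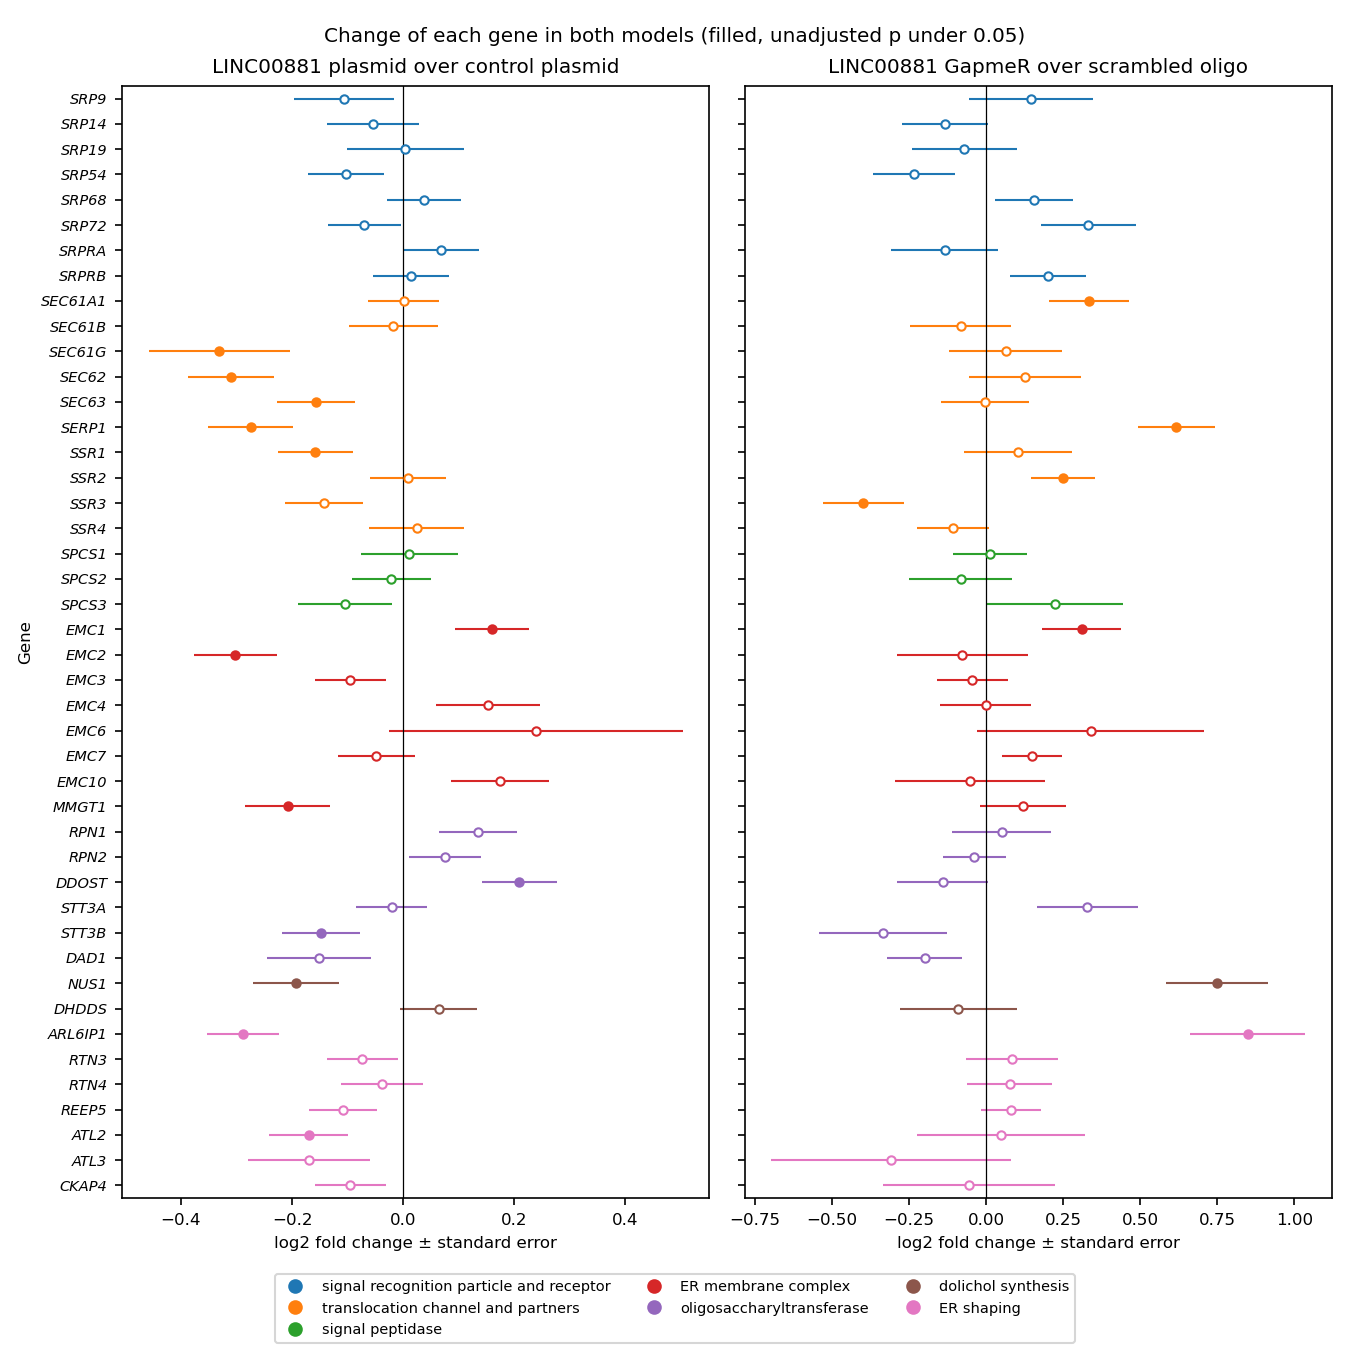
Log2 fold change (x axis, with the standard error as bars) of each of the 44 genes (y axis, grouped by role and colour) for LINC00881 plasmid over control plasmid (left) and LINC00881 GapmeR over scrambled oligonucleotide (right), with 4 libraries in each group; filled points have an unadjusted p under 0.05 in edgeR's test. The scales of the 2 panels differ. SERP1, NUS1 and ARL6IP1 are filled on the left of zero with overexpression and on the right of zero with knockdown.

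SERP1, ARL6IP1 and NUS1 were the 3 genes that were both lower with overexpression and higher with knockdown, a pattern seen in 0.642% of the 14184 genes tested in both models. No gene of the group was higher with overexpression and lower with knockdown (0.529% of all genes), and EMC1 was higher in both (0.212% of all genes moved in the same direction in both). The 2 comparisons share no library. In 1 fit of all 16 libraries the overexpression change minus the knockdown change was -0.90 for SERP1 (standard error 0.14), -0.95 for NUS1 (standard error 0.15) and -1.14 for ARL6IP1 (standard error 0.20). These differences follow from how the genes were chosen and are given as values.

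SERP1 encodes a small tail-anchored protein, also known as RAMP4, that sits at the SEC61 channel and accumulates under ER stress. It stood at 43.8, 49.7, 44.3 and 47.6 CPM with overexpression, against 52.6, 55.5, 61.3 and 54.7 CPM with control plasmid. With knockdown it stood at 100.6, 90.3, 98.8 and 114.9 CPM, against 70.4, 69.5, 59.4 and 64.4 CPM with scrambled oligonucleotide. All overexpression libraries were below all of their controls, and all knockdown libraries were above theirs. The log2 fold change was -0.27 (standard error 0.08) with overexpression and 0.62 (standard error 0.12) with knockdown. SERP1 lies on chromosome 3 from 150541994 to 150603228 of GRCh38 on the minus strand, and 214 bases of its exons overlap EIF2A and SELENOT on the other strand, which unstranded counting could not separate.

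ARL6IP1 encodes a membrane protein with reticulon-like hairpins that curves ER tubules. Its level was 104.0, 110.5, 106.3 and 103.6 CPM with overexpression, against 121.6, 137.1, 129.7 and 129.6 CPM with control plasmid. With knockdown its level was 168.2, 155.5, 231.4 and 246.8 CPM, against 106.8, 139.4, 101.8 and 97.0 CPM with scrambled oligonucleotide. The groups were apart in both models, and knockdown replicates 3 and 4 stood well above replicates 1 and 2. The log2 fold change was -0.29 (standard error 0.06) with overexpression and 0.85 (standard error 0.19) with knockdown, the largest positive value of the group. The gene lies on chromosome 16 from 18791667 to 18801678 on the minus strand and shares 546 bases of exon with AC138811.2 on the same strand.

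NUS1 encodes the Nogo-B receptor, the partner subunit of DHDDS in the enzyme that makes the polyprenol precursor of dolichol, the carrier of N-glycans. It was counted at 41.1, 42.6, 42.1 and 45.8 CPM with overexpression, against 48.5, 47.3, 54.7 and 45.9 CPM with control plasmid. With knockdown it was counted at 17.5, 19.7, 21.9 and 19.1 CPM, against 12.5, 11.3, 11.4 and 11.3 CPM with scrambled oligonucleotide. The overexpression groups all but touched at 45.8 and 45.9 CPM, whereas the knockdown groups were widely apart. The log2 fold change was -0.19 (standard error 0.08) with overexpression and 0.75 (standard error 0.17) with knockdown. The overexpression call was lost without LINC00881 plasmid replicate 1 (-0.18) or 3 (-0.19) or control plasmid replicate 3 (-0.14). Its partner DHDDS passed the cutoff in neither model, at 0.06 and -0.09. NUS1 lies on chromosome 6 from 117675502 to 117710640 on the plus strand with no overlapping exon, and its annotated pseudogenes held 1.14% as many counts as the gene.

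**Figure D2:**
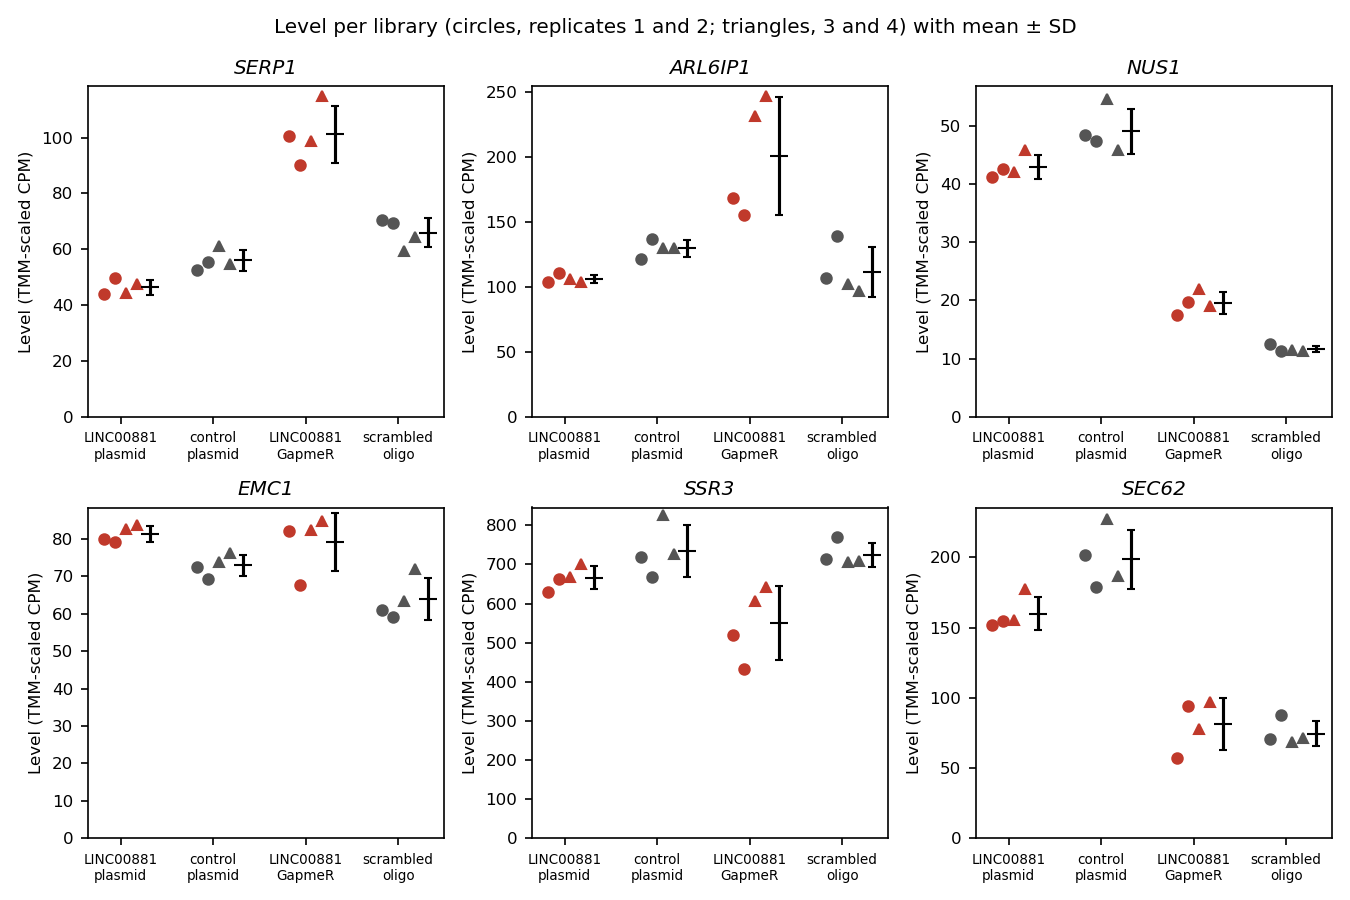
Level in TMM-scaled CPM (y axis, from 0) of SERP1, ARL6IP1, NUS1, EMC1, SSR3 and SEC62 in each of the 16 libraries, by group (x axis); circles are replicates 1 and 2, triangles replicates 3 and 4, and bars the mean with its SD (n = 4). For SERP1, ARL6IP1 and NUS1 the LINC00881 plasmid libraries lie below the control plasmid libraries and the GapmeR libraries above the scrambled ones, and for SSR3 the GapmeR libraries lie below the scrambled ones.

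Of the 10 genes of the translocation channel and its partners, 5 were lower with overexpression (SEC61G, SEC62, SEC63, SERP1 and SSR1) and none was higher. Over all genes, 6.23% were lower and 5.87% higher. The calls of SEC61G and SEC63 were lost with the offsets on GC content and length described below. With knockdown SEC61A1, SERP1 and SSR2 were higher and SSR3 was lower (4.20% and 4.15% of all genes). The summed level of the 10 genes was 1586 ± 35.6 CPM with overexpression, against 1744 ± 105 CPM with control plasmid (SD, n = 4 each), and SSR3 is the largest term in that sum. The sums did not overlap, at 1544 to 1631 and 1658 to 1897 CPM. With knockdown they overlapped, at 1394 to 1704 CPM, against 1532 to 1755 CPM with scrambled oligonucleotide.

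SEC62, which with SEC63 helps short and weakly targeted proteins through the channel and also serves as an ER-phagy receptor, stood at 152.1, 154.8, 155.8 and 177.6 CPM with overexpression, against 201.8, 179.0, 227.1 and 186.5 CPM with control plasmid. All treated libraries were below all controls, and the log2 fold change was -0.31 (standard error 0.08). With knockdown its groups overlapped (0.13, standard error 0.18). SEC63, which recruits the chaperone BiP to the channel, was lower with overexpression at -0.16, and its knockdown value was 0.00. SEC61G, a small channel subunit, had the largest negative value of the group with overexpression (-0.33, standard error 0.13), with overlapping libraries. Exons of SEC62 and SEC63 overlap unnamed loci on the other strand by 100 and 304 bases.

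SEC61A1, the pore-forming subunit, was at 0.00 (standard error 0.06) with overexpression and not called. With knockdown it stood at 216.1, 180.8, 261.7 and 209.2 CPM, against 169.4, 188.3, 169.6 and 161.8 CPM with scrambled oligonucleotide. Knockdown replicate 2 lay within the range of the controls, and the log2 fold change was 0.33 (standard error 0.13). Its 344 exonic bases in common with RUVBL1, on the other strand, make the value uncertain.

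The 4 subunits of the translocon-associated protein complex, SSR1 to SSR4, differed in their values. SSR3, the gamma subunit, stood at 518.9, 432.0, 606.4 and 641.5 CPM with knockdown, against 713.6, 768.9, 706.1 and 708.7 CPM with scrambled oligonucleotide. All knockdown libraries were below all controls, and the log2 fold change was -0.40 (standard error 0.13). With overexpression SSR3 was at -0.14 (standard error 0.07) with overlapping libraries. SSR2 was higher with knockdown (0.25, standard error 0.10) without overlap, SSR1 was lower with overexpression (-0.16, standard error 0.07), and SSR4 passed the cutoff in neither model (0.02 and -0.11). SSR3 lies on chromosome 3 from 156540140 to 156555184 on the minus strand, 534.7 kb from LINC00881 (157089881 to 157101135), and it is 1 of 9 genes of the group on that chromosome.

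Of the 8 genes of the signal recognition particle and its receptor, none was called in either model. Their changes lay between -0.11 and 0.07 with overexpression and between -0.23 and 0.33 with knockdown. The upper end was SRP72, which with SRP68 binds the RNA of the particle, and the lower end was SRP54, the GTPase that recognises the signal sequence. Of the 3 signal peptidase subunits, which accompany the catalytic SEC11 proteins, none was called, and the largest values were those of SPCS3, at -0.10 with overexpression and 0.22 with knockdown.

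Of the 8 genes of the ER membrane complex, 2 were lower and 1 was higher with overexpression (6.23% and 5.87% of all genes). With the offsets on GC content and length described below, both lower calls were lost and the higher call was kept. EMC2, a cytosolic scaffold subunit, was lower at 55.4, 52.5, 54.5 and 53.0 CPM, against 59.8, 69.3, 72.2 and 64.2 CPM with control plasmid. MMGT1, also called EMC5, was lower as well (-0.21, standard error 0.08). EMC1, the large lumenal subunit, was higher at 79.9, 79.2, 82.7 and 83.7 CPM, against 72.5, 69.2, 73.8 and 76.2 CPM with control plasmid. None of these 3 genes had overlapping groups. The log2 fold change was -0.30 (standard error 0.07) for EMC2 and 0.16 (standard error 0.07) for EMC1. The insertase subunits EMC3 and EMC6 were at -0.10 and 0.24 and not called, and the summed level of the 8 subunits overlapped between the groups (575 to 626 and 571 to 627 CPM).

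With knockdown EMC1 stood at 82.1, 67.7, 82.3 and 84.8 CPM, against 61.1, 59.2, 63.3 and 72.0 CPM with scrambled oligonucleotide. Knockdown replicate 2 fell within the control range, and the log2 fold change was 0.31 (standard error 0.13). EMC2 was at -0.08 and not called. The summed level of the 8 subunits was 498 to 544 CPM with knockdown and 476 to 495 CPM with scrambled oligonucleotide, without overlap. The call for EMC1 was lost with overexpression when LINC00881 plasmid replicate 3 or 4 or control replicate 1 or 2 was left out (lowest log2 fold change 0.13), and with knockdown when GapmeR replicate 1, 3 or 4 or scrambled replicate 1, 2 or 3 was left out (lowest 0.27). It was also lost with overexpression in 1 fit of all 16 libraries (0.17) and with knockdown among all genes with at least 1 count (0.31). Its exons overlap AL035413.1 and MRTO4 on the other strand by 286 bases.

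Of the 6 oligosaccharyltransferase subunits, DDOST was higher and STT3B lower with overexpression. DDOST, a subunit common to both forms of the enzyme, stood at 213.3, 190.3, 198.8 and 185.3 CPM, against 165.4, 178.7, 160.7 and 176.3 CPM with control plasmid. The groups did not overlap, and the log2 fold change was 0.21 (standard error 0.07). RPN1 and RPN2, further shared subunits, were at 0.13 and 0.07 and not called, and DAD1 was at -0.15. The catalytic subunit STT3B, which glycosylates sites the co-translational enzyme has missed, was lower at -0.15 with overlapping libraries, and the co-translational subunit STT3A was at -0.02. With knockdown none of the 6 was called, and the extremes were STT3B at -0.33 (standard error 0.21) and STT3A at 0.33 (standard error 0.17). DDOST shares 427 exonic bases with PINK1-AS on the same strand.

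All 7 ER shaping genes had negative values with overexpression, from -0.29 for ARL6IP1 to -0.04 for RTN4, where 49.1% of all genes were negative. ARL6IP1 and ATL2, a GTPase that fuses ER tubules, were lower (ATL2 -0.17, standard error 0.07), and the other 5 did not pass the cutoff. With knockdown ARL6IP1 alone was called. RTN3, RTN4 and REEP5, hairpin proteins of the tubules, were at 0.08 each, and ATL3 at -0.31 (standard error 0.39) and the sheet protein CKAP4 at -0.06 (standard error 0.28) had wide errors.

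The knockdown libraries fall into 2 sets, replicates 1 and 2 and replicates 3 and 4, that differ in many genes, also among scrambled controls, and the labels do not say what separates them. Within replicates 1 and 2, 7 of the 44 genes were higher and 9 lower (13.4% and 13.7% of all genes), with a median of -0.056. Within replicates 3 and 4, 11 were higher and 1 was lower (6.95% and 8.26% of all genes), with a median of 0.10. In all, 14 genes had positive values in both sets, 4 had negative values in both, and 26 had opposite signs. Over all 18127 genes these numbers were 4377, 4456 and 9285, so opposite signs were common throughout. These set values come from 1 fit of the 8 libraries, with 2 against 2 in each set.

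SERP1 was higher in both sets at 0.45 (standard error 0.13) and 0.79 (standard error 0.13), NUS1 at 0.65 and 0.85, and ARL6IP1 at 0.39 and 1.27. These 3 genes were the ones called higher in both sets. They were chosen with the results of the same libraries known, so their likeness between the sets is no replication. The share of all genes called higher in both sets was not computed. In replicates 1 and 2, SRP68, SRP72, SSR2 and RTN4 were also higher, and RPN1, DDOST, STT3B, DAD1, SSR1, SSR3, SSR4, SRP54 and CKAP4 were lower, among them 4 of the 6 oligosaccharyltransferase subunits. In replicates 3 and 4, RPN1 and STT3A were higher instead, together with SRP9, SRPRB, SEC61A1, SSR1, SPCS3 and CKAP4, and ATL3 was lower. At an adjusted p under 0.05 in edgeR, SRP72 was higher and SSR3 and STT3B were lower in replicates 1 and 2 (4.55% and 5.09% of all genes), and SERP1 and ARL6IP1 were higher and none was lower in replicates 3 and 4 (0.612% and 0.767% of all genes). SSR3 was at -0.64 (standard error 0.11) and -0.18 (standard error 0.11). LINC00881 itself was at -2.85 and -1.40.

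The difference between the sets (replicates 3 and 4 minus replicates 1 and 2) passed an adjusted p under 0.05 for 3 genes, all positive, as for 2.46% of all genes in that direction (3.21% in the other). For CKAP4, which spaces the membranes of ER sheets, it was 1.42 (standard error 0.31, edgeR adjusted p = 0.0380), with levels of 82.0, 103.2, 109.0 and 176.3 CPM, against 164.7, 145.9, 93.8 and 84.7 CPM with scrambled oligonucleotide. For ARL6IP1 it was 0.87 (standard error 0.20, edgeR adjusted p = 0.0433), and for SSR1 0.85 (standard error 0.19, edgeR adjusted p = 0.0398). SSR1 stood at 99.3, 108.1, 128.9 and 151.3 CPM with knockdown, against 126.3, 133.0, 89.8 and 104.6 CPM. For CKAP4 and SSR1 the controls of the sets differed as well as the treated libraries. Among scrambled controls alone, replicates 3 and 4 against 1 and 2, ATL3 was at 1.39, RTN4 at 0.43 and CKAP4 at -0.80, and the median over the 44 genes was -0.12. In that contrast 3 genes were higher and 7 lower (13.5% and 11.2% of all genes), and after adjustment ATL3 and RTN4 were higher and none was lower (4.97% and 3.83%), in libraries that received no GapmeR.

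**Figure D3:**
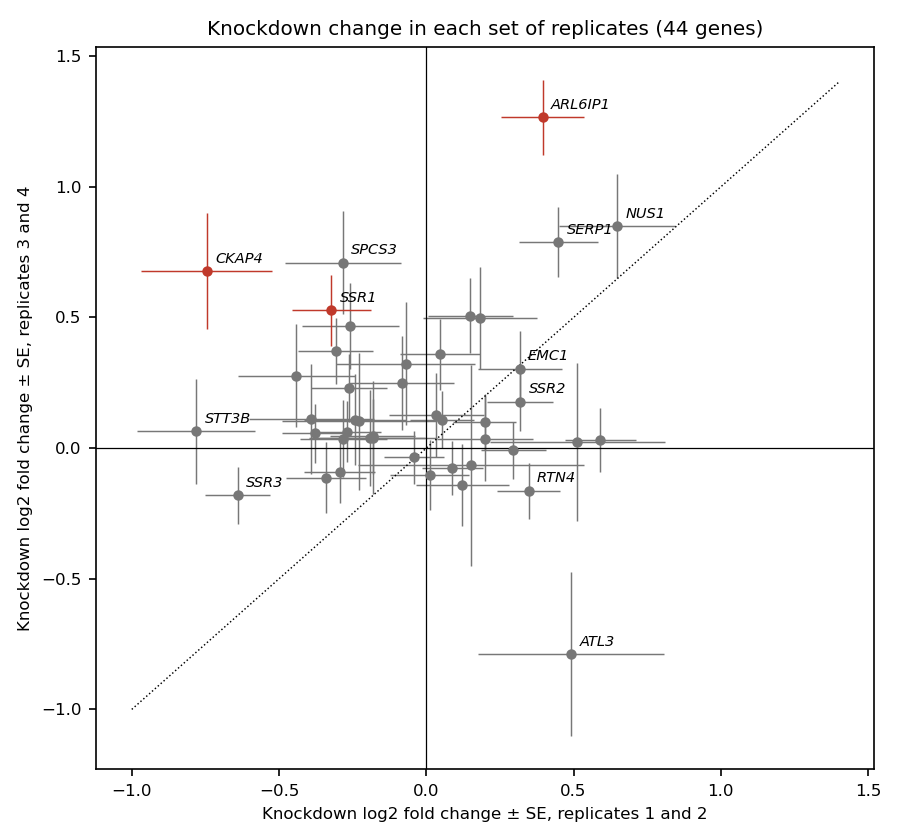
Knockdown log2 fold change of each of the 44 genes in replicates 1 and 2 (x axis) and in replicates 3 and 4 (y axis), with standard errors as bars and the line of equal change dotted; red marks the genes whose difference between the sets had an adjusted p under 0.05 in edgeR's test. SERP1, NUS1 and ARL6IP1 lie at the upper right, and CKAP4 and SSR1 are negative in replicates 1 and 2 and positive in replicates 3 and 4.

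The overexpression values of the group followed GC content. Over the 44 genes Spearman's rho of the log2 fold change with the GC content of the longest transcript was 0.75, as a description across genes that share the same libraries, and it was 0.494 over 13589 genes. The 15 genes of lowest GC content (32.5% to 40.7%) had a median of -0.16, with 14 negative and 8 called lower. The 14 in the middle had a median of -0.06, and the 15 of highest GC content (47.4% to 60.8%) had a median of 0.04 with none called lower. The share of all genes of like GC content that was negative or called lower was not computed, so these counts have no background. With knockdown rho was -0.12. The group was poorer in GC than the genes tested, with a median of 43.3% against 47.7%.

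With offsets for GC content and transcript length the overexpression median of the group was -0.012, rho was 0.31, and 5 genes were lower and 3 higher. Over all 14355 genes, 594 were lower and 735 higher with these offsets, against 894 and 843 without them. SERP1, ARL6IP1, SEC62 and SSR1 were lower under both scalings, and EMC1 and DDOST were higher under both. NUS1 (-0.08) and EMC2 (-0.10) were no longer called, nor were SEC61G, SEC63, MMGT1, STT3B and ATL2, while CKAP4 joined the lower and EMC4 the higher genes. With knockdown all 7 called genes were called under the offsets as well, and STT3A was added. Over all 18127 genes, 816 were higher and 722 lower with knockdown under the offsets.

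**Figure D4:**
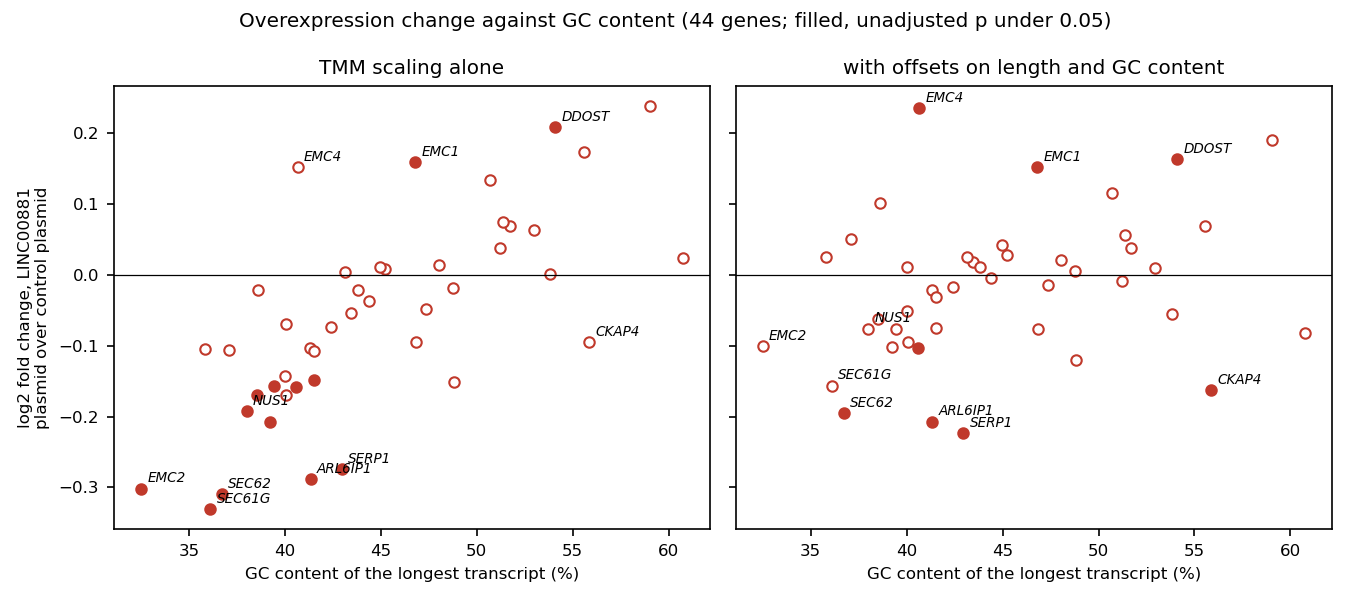
Overexpression log2 fold change (y axis) of the 44 genes against the GC content of the longest annotated transcript in percent (x axis), with TMM scaling alone (left) and with GC and length offsets (right); filled points have an unadjusted p under 0.05 in edgeR's test. The slope on the left (rho 0.75) is smaller on the right (rho 0.31), where SERP1, ARL6IP1 and SEC62 remain filled and NUS1 and EMC2 do not.

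Genes of the same pathways outside the group were counted from lists that were also drawn up with earlier results known. Of 14 further translocation factors tested, NOMO2, a partner of the channel at multipass proteins with near-identical copies in the genome, was higher (0.17) and SEC11A, a catalytic subunit of signal peptidase, lower (-0.16) with overexpression, and none was called with knockdown. Of 6 and 7 factors that insert tail-anchored proteins, none was called with overexpression, and CAMLG, a subunit of the receptor at the ER membrane, was higher with knockdown (0.59, standard error 0.12), at 69.8 ± 5.24 CPM, against 46.5 ± 3.28 CPM with scrambled oligonucleotide (SD, n = 4 each). Of 22 further genes of dolichol and N-glycan assembly, DOLK, the dolichol kinase, was higher (0.20) and ALG2, a mannosyltransferase, lower (-0.17) with overexpression. ALG10B, a glucosyltransferase near the limit of detection, was lower with knockdown at 0.130 ± 0.0942 CPM, against 0.512 ± 0.256 CPM. Of 6 further oligosaccharyltransferase subunits KRTCAP2 was higher with overexpression (0.60), with an exon overlap on the same strand, and none was called with knockdown. Of 14 further ER shaping genes KTN1, a sheet protein, was lower with overexpression (-0.18), and REEP2 (0.58) and ATL1 (0.72), relatives of REEP5 and ATL2, were higher with knockdown. REEP2 was at 0.90 in replicates 1 and 2 and 0.24 in replicates 3 and 4, and ATL1, whose exons overlap MAP4K5 and SAV1 on the other strand, was at 0.03 and 1.23. With the GC and length offsets the overexpression calls of NOMO2, DOLK, ALG2 and KTN1 were lost, and those of SEC11A and KRTCAP2 were kept.

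Of 26 genes of the unfolded protein response, 6 were higher and 2 lower with overexpression (5.87% and 6.23% of all genes). Their summed level, without TMM scaling, was 4295 to 4496 CPM with overexpression, against 4099 to 4305 CPM, with overlap. With knockdown it was 3951 to 4503 CPM, against 3466 to 3868 CPM with scrambled oligonucleotide, without overlap. CALR, a calcium-binding ER chaperone, stood at 362 ± 31.3 CPM, against 291 ± 21.6 CPM with control plasmid (SD, n = 4 each), or 0.32 on the log2 scale (standard error 0.07). PDIA4, a disulfide isomerase, was higher at 0.32 (standard error 0.08), and CRELD2 at 0.36 (standard error 0.14). The remaining calls, named here after their values were seen, were HSPA5 (0.15), PDIA6 (0.16) and HYOU1 (0.15), all higher, and the ER co-chaperones DNAJB9 (-0.14) and DNAJC3 (-0.17), both lower. Other chaperones of the list did not pass, among them HSP90B1 (-0.01), CANX (0.02) and DNAJB11 (0.13). With the GC and length offsets CALR, PDIA4, CRELD2, HSPA5 and PDIA6 were called and the other 3 were not. With knockdown PPP1R15A, the phosphatase subunit that ends translational arrest, was higher (0.85, standard error 0.30) and ATF6, the ER stress sensor cleaved in the Golgi, was lower (-0.81, standard error 0.16). ATF6 was lower in both sets (-0.59 and -1.07), and PPP1R15A was at 1.52 in replicates 1 and 2 and at -0.06 in replicates 3 and 4. CALR, CRELD2, DNAJB9, PDIA6 and HYOU1 overlap exons of other genes on the opposite strand, which makes their values uncertain.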

How the data were processed

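RNA-Seq counts were analysed for 16 libraries of WTC-11 hiPSC-CMs, grouped by the submitters' labels. The authors aligned paired-end reads of a stranded total RNA kit with STAR 2.7.3a to the Gencode v38 reference and deposited raw counts of each gene symbol in a single table, without normalization. The name of the table gives unstranded counting by featureCounts, so overlapping genes were not told apart by strand. Every column of the table belonged to a library of the study. Positions, exon lengths, GC content and exon overlaps came from the GENCODE 29 annotation of GRCh38, in which 40216 symbols (67.7%) were found.

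Genes were tested with the quasi-likelihood F-test of edgeR 4.0.16 in R 4.3.3, 2-sided, with TMM scaling, robust dispersion and filterByExpr, fitted on all genes of each model against its own control, with Benjamini-Hochberg adjustment over all genes tested. The authors used DESeq2 on the counts, and the cutoff of 0.05 in their text is not called adjusted or unadjusted. Knockdown within replicates 1 and 2 and within 3 and 4 came from 1 fit with the set as a factor. Alternatives were DESeq2 1.42.0, DESeq2 size factors, other filters (at least 1 count, or a mean of at least 100), a block for the replicate number, the set as a term, offsets on length or on length and GC content (splines with 5 degrees of freedom), all 16 libraries in 1 fit, 2 separate fits of the sets and each library left out. A library was set apart when its gap to the nearest other library exceeded Dixon's limit for 4 values at 95%.

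The members, gene lists and tests were chosen with earlier results of these data known. Values in every library were given for members called in both models and, per model and direction, for up to 4 called members with the smallest p. From other lists up to 3 called genes per list and model were named, and further genes of the unfolded protein response list were named after their values were seen. Tests were checked on simulated counts with 200 changed genes in each model. At a log2 change of 0.5 the unadjusted cutoff found 82.1% of 67 changed genes among 14355 in the simulated overexpression experiment and 29.2% of 67 changed genes among 18127 in the simulated knockdown experiment. The adjusted cutoff found 68.7% and 0% at that change, and 10.8% at a change of 1 with knockdown. All overexpression values of the group, from -0.33 to 0.24, were smaller than the changes simulated, so their recovery was not tested.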

Additional observations from a re-analysis of the deposited data

Results flagged for a closer look

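Among 36 groups of 4 libraries (9 genes in 4 groups), 5 held a library past Dixon's limit for its gap to the others. Chance puts about 1 in 20 groups past this limit. SEC62 stood at 177.6 CPM in LINC00881 plasmid replicate 4, against 152.1 to 155.8 CPM in the other libraries of that group. SEC62 was also high in scrambled replicate 2, at 87.5 CPM, against 68.4 to 71.2 CPM in the other scrambled libraries. SSR3 stood at 768.9 CPM in the same library, against 706.1 to 713.6 CPM, and NUS1 at 12.5 CPM in scrambled replicate 1, against 11.3 to 11.4 CPM. EMC1 stood at 67.7 CPM in GapmeR replicate 2, against 82.1 to 84.8 CPM in the other GapmeR libraries, and its call with knockdown was kept without that library.

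The knockdown effect differed between the sets of replicates for CKAP4 (difference 1.42), ARL6IP1 (0.87) and SSR1 (0.85), in the interaction contrast of edgeR's quasi-likelihood test. The labels do not say what the sets stand for, so that biology and handling cannot be told apart.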

How the results depend on the processing

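For the 9 genes with values in every library no called value changed sign under any alternative, and side of the cutoff was kept in 276 comparisons, lost in 25 and gained in 5 (SSR3 with overexpression). ARL6IP1 and NUS1 lost their overexpression call in 1 fit of all 16 libraries (-0.28 and -0.19), and SERP1 kept it. SEC61A1 lost its knockdown call without GapmeR replicate 3 (0.23) or scrambled replicate 1 (0.32), 3 (0.32) or 4 (0.30).

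Of the counts, the 11 genes lower with overexpression became 5 with GC and length offsets and 2 in 1 fit of all 16 libraries. The 2 higher became 4 among all genes with at least 1 count and 0 in the joint fit. Calls over all genes changed as well. Of 14355 genes, 894 were lower in the main fit and 594 with GC and length offsets. The joint fit called 53 lower and 94 higher of 17782 genes. With at least 1 count 1314 of 32465 genes were higher, against 843 of 14355 in the main fit. Genes lower with overexpression and higher with knockdown numbered 1 in the joint fit, in which the genes higher with knockdown numbered 9 in place of 6. Over all genes, 1709 of 17782 were higher with knockdown in the joint fit, against 761 of 18127 in the main fit. The gene lower with knockdown became 2 with offsets on length (728 of all 18127 genes, against 753 in the main fit). The overexpression median of -0.062 was -0.012 with offsets on length and GC content. In 2 separate fits, replicates 1 and 2 had 4 lower and 3 higher genes in place of 9 and 7. Replicates 3 and 4 had 2 lower in place of 1, as with offsets on length and GC content. The shares of all genes called in these alternative fits of the sets were not computed.

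Leaving out each library in turn gave 5 to 13 genes lower and 1 to 3 higher with overexpression, and 1 to 2 lower and 3 to 7 higher with knockdown. Over all genes these fits gave 524 to 1401 lower and 471 to 1279 higher with overexpression. With knockdown they gave 602 to 851 lower and 546 to 839 higher. The lowest overexpression counts came without LINC00881 plasmid replicate 1 (6) or 3 (7) or control replicate 3 (5). The higher count was 1 without LINC00881 plasmid replicate 3 or 4 or control replicate 1. With knockdown the higher count was 3 without scrambled replicate 1 or 3, and the lower count 2 without GapmeR replicate 1. The knockdown median ranged from -0.00076 without GapmeR replicate 4 to 0.091 without GapmeR replicate 1. The overexpression median ranged from -0.117 without control replicate 1 to -0.030 without control replicate 2. Over all genes, the adjusted calls with overexpression numbered 1 in edgeR, 57 in DESeq2 and 260 in edgeR without control replicate 2, and with knockdown 0 in edgeR (1514 at an unadjusted p under 0.05), 194 in DESeq2 and 555 in the joint edgeR fit, 3 of them (ARL6IP1, NUS1 and SERP1) in the group described.

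Replicate numbers were not found to pair single samples, since correlations of same-numbered deviations ran from -0.09 to 0.17. With knockdown, treated and control libraries did match by set. Their correlations were positive within a set (0.079 to 0.168) and negative across sets (-0.175 to -0.062). The main knockdown fit held no term for the set. With that term 1 gene was lower and 8 were higher with knockdown (1308 and 1196 of all 18127 genes). With a replicate block 11 genes were lower and 3 higher with overexpression (944 and 976 of all 14355 genes). With that block 1 was lower and 6 were higher with knockdown (1019 and 871 of all 18127 genes). The block changed no call of the 9 genes.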
